A study of Mus musculus with 8 samples.

Results

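The mRNA of 10 cytokine genes that lipopolysaccharide (LPS) induces in macrophages, and whose products are not processed as IL-1 family substrates of caspase-1, was followed in mouse cells exposed to auranofin, a gold-containing anti-rheumatic drug. The genes were *Tnf*, *Il6*, *Il10*, *Il12a*, *Il12b*, *Il23a*, *Il1rn*, *Csf2*, *Csf3* and *Lif*, taken by symbol from the deposited expression tables. The rule itself uses no measured value, although earlier results of these data were known when it was set. The table for bone marrow-derived macrophages (BMDM) lists all 10 of them among 17408 genes. The table for activated hepatic stellate cells (AHSC) lists 9 of them among 18645 genes, and *Il12a* was not analysed here in AHSC. Each table holds 2 vehicle and 2 auranofin libraries, 8 libraries in all.

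All cells came from C57BL/6 mice. BMDM were grown from the marrow of male mice aged 8 weeks with macrophage colony-stimulating factor for 7 days, and every BMDM library, the vehicle ones included, received LPS at 100 ng/mL and ATP at 1 mM. The labels give auranofin at 0.1 µM for BMDM, whereas the study's text gives 0.3 µM. BMDM were exposed to auranofin for 1 h, after 4 h of LPS by the protocol described for the other BMDM experiments. AHSC were stellate cells isolated from liver by density gradient, left without LPS or ATP and exposed to 0.03 µM auranofin or vehicle (untreated in the labels) for 12 h. The mouse age is not given for AHSC. No BMDM library lacks LPS, so the induction of these genes by LPS could not be measured, and only the difference that auranofin made on top of it was compared.

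LPS reaches these genes through Toll-like receptor 4, which activates NF-κB, AP-1 and interferon regulatory factors. TNF and IL-6 are the classical proinflammatory cytokines of activated macrophages. IL-12 is a dimer of the *Il12b* product p40 with the *Il12a* product p35, and IL-23 pairs the same p40 with the *Il23a* product p19, so *Il12b* serves both and drives T and NK cell responses. IL-10 and the IL-1 receptor antagonist encoded by *Il1rn* restrain inflammation, the latter by occupying the IL-1 receptor without signalling. *Csf2* (GM-CSF) and *Csf3* (G-CSF) support myeloid growth, and LIF belongs to the IL-6 family. Many of these mRNAs are short-lived because AU-rich repeats in their 3′ UTR are bound by decay factors such as tristetraprolin, the product of *Zfp36*.

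Promoter sequences are shown for the genes furthest below and above vehicle in BMDM, and for *Il6*, whose window holds 3 of the motifs searched. RefSeq promoter windows (GRCm38.p6, 250 bases before to 50 after a start) were found for 7 of the 10 genes, and not for *Il10*, *Il23a* and *Csf3*. On both strands, a κB motif, an AP-1 motif (TGANTCA), a C/EBP motif (TTNCNNAA), a PU.1 motif (GAGGAA) and an NRF2 motif (TGACNNNGC) were searched. The 250 bases before the start are printed in the direction of transcription for *Il6* (chr5:30012864-30013113, plus strand), which lay mid-order, for *Il12b* (chr11:44399813-44400062, plus strand), which was the furthest below vehicle of the 10 in an auranofin library, and for *Lif* (chr11:4257318-4257567, plus strand), which was the furthest above. Capitals mark the 5 motifs.
Il6: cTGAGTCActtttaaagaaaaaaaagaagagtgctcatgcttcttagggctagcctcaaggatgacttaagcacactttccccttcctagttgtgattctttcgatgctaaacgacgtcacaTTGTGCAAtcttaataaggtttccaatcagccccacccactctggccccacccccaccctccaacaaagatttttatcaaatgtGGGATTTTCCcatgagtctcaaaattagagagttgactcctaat
Il12b: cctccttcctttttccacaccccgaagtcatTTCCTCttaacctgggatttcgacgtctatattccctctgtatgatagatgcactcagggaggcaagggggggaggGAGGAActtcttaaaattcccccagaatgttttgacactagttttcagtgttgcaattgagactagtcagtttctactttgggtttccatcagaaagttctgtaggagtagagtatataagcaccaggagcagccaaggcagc
Lif: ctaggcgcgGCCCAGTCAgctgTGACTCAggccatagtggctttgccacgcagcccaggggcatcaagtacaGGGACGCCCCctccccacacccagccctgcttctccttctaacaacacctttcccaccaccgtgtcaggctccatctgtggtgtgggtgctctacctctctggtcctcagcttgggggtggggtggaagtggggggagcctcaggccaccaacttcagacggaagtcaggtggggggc

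In *Il6*, the AP-1 match begins at base -249, the C/EBP match at -128 and the κB match at -44, counted from the start site. Of the 5 motifs, the *Il12b* window holds only PU.1 letters, at -219 and -143. A site that departs from the searched letters is not marked, so other elements may be present. In *Lif*, an NRF2 match at -241 is followed by an AP-1 match at -228 and a κB match at -178, none of them overlapping. The *Tnf* window holds C/EBP letters at -181 and -41 and PU.1 letters at -117, and neither *Il12a* window holds any of the 5. *Csf2*, the only other gene with NRF2 letters, has them at -4, with C/EBP letters at -145. Of the 3 *Il1rn* windows, which start at different sites, 1 holds AP-1 letters at -141 and the others, which overlap, hold C/EBP letters. Of 32851 RefSeq windows of 300 bases, the length searched, 8.46% hold the κB letters, 7.81% the AP-1 letters, 40.7% the C/EBP letters, 28.3% the PU.1 letters and 12.4% the NRF2 letters. A match describes the letters and does not show that a factor binds there.

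The 3′ UTRs share a feature that choosing genes by name did not use. In GENCODE M21, 9 of the 10 genes carry 6 or more copies of the pentamer ATTTA in their longest annotated 3′ UTR, and *Il1rn* carries 0 in 1864 bases. Compared at like length, all 8 of these genes whose 3′ UTR has 300 to 1500 bases carry 5 or more, and so do 5.83% of the 7463 genes in the tables within that range, whose median is 1. *Il1rn* and *Lif*, with 3180 bases, lie outside it. The 30 bases richest in the pentamer are given for 5 of the genes, with the pentamer in capitals, because they show how it is arranged.
Tnf: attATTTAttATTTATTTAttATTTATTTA
Csf2: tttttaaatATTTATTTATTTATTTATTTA
Il12a: gcctATTTAtATTTATTTAttttctATTTA
Il12b: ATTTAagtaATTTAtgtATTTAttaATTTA
Csf3: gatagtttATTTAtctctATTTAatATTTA

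The pentamers overlap or adjoin in *Tnf* (8 in 764 bases) and *Csf2* (9 in 317 bases), where they form 5 and 4 copies of the longer element TTATTTATT. *Il12b*, with 6 pentamers in 797 bases, and *Csf3*, with 6 in 669 bases, have none of the longer element, nor do *Il6* (6 in 427 bases) and *Il10* (6 in 706 bases). *Il12a* and *Il23a* have 1 copy each and *Lif* has 2. The longer element occurs in 4.77% of the 7463 genes.

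Expression was deposited as FPKM, fragments scaled to transcript length and library size, which allows levels to be compared between genes within a table. The libraries hold an estimated 27.5 to 39.4 M fragments each. Macrophage markers summed to between 9663 and 10886 FPKM in BMDM, where granulocyte markers summed to between 167 and 231, Kupffer cell markers to between 126 and 147, and the stellate, endothelial, hepatocyte, lymphocyte and dendritic cell markers to at most 13.6. AHSC expressed the stellate genes *Acta2* (737 to 965 FPKM) and *Col1a1* (927 to 1075 FPKM), but the same 11 macrophage markers summed to between 8150 and 8501 FPKM and the Kupffer cell markers to between 2201 and 2447. *Lyz2*, which encodes a lysozyme of myeloid cells, lay between 5379 and 5554 FPKM there. The AHSC values are therefore those of a culture in which macrophage mRNA is abundant, and the cell of origin of a cytokine mRNA cannot be told apart. In BMDM, auranofin replicate 1 stood apart: it differed at least 2-fold from replicate 2 in 383 of 4245 genes at 10 FPKM or more, against 14 between the vehicle libraries, so the differences in BMDM are given with and without it.

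The order of the cytokines differed between the tables. In vehicle BMDM, *Tnf* was the highest, at 2044 ± 60.4 FPKM (SD, n = 2), followed by *Il1rn* at 1284 ± 48.3. *Il6* at 415 ± 2.21 came next, then *Il10* at 93.7 ± 2.95 and *Il12b* at 77.5 ± 15.1, a pair that lay within about 1 SD of each other. *Csf2* at 11.9 ± 0.379 stood above *Il23a* at 10.3 ± 0.312, *Il12a* at 5.17 ± 0.327, *Csf3* at 4.38 ± 0.203 and *Lif* at 0.288 ± 0.00142. In vehicle AHSC, *Il1rn* led at 60.6 ± 1.18 FPKM, ahead of *Tnf* at 10.5 ± 0.684. *Il6* at 3.56 ± 0.166 and *Lif* at 3.43 ± 0.0417 did not differ beyond their spread, and the 5 other genes had means of at most 0.312. *Lif* was thus the lowest of the 10 in BMDM and among the 4 measurable genes in AHSC. The 2 tables were normalized separately, and cell type, LPS, ATP, dose and time all differ between them, so these levels are set side by side without a test.

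**Figure D1:**
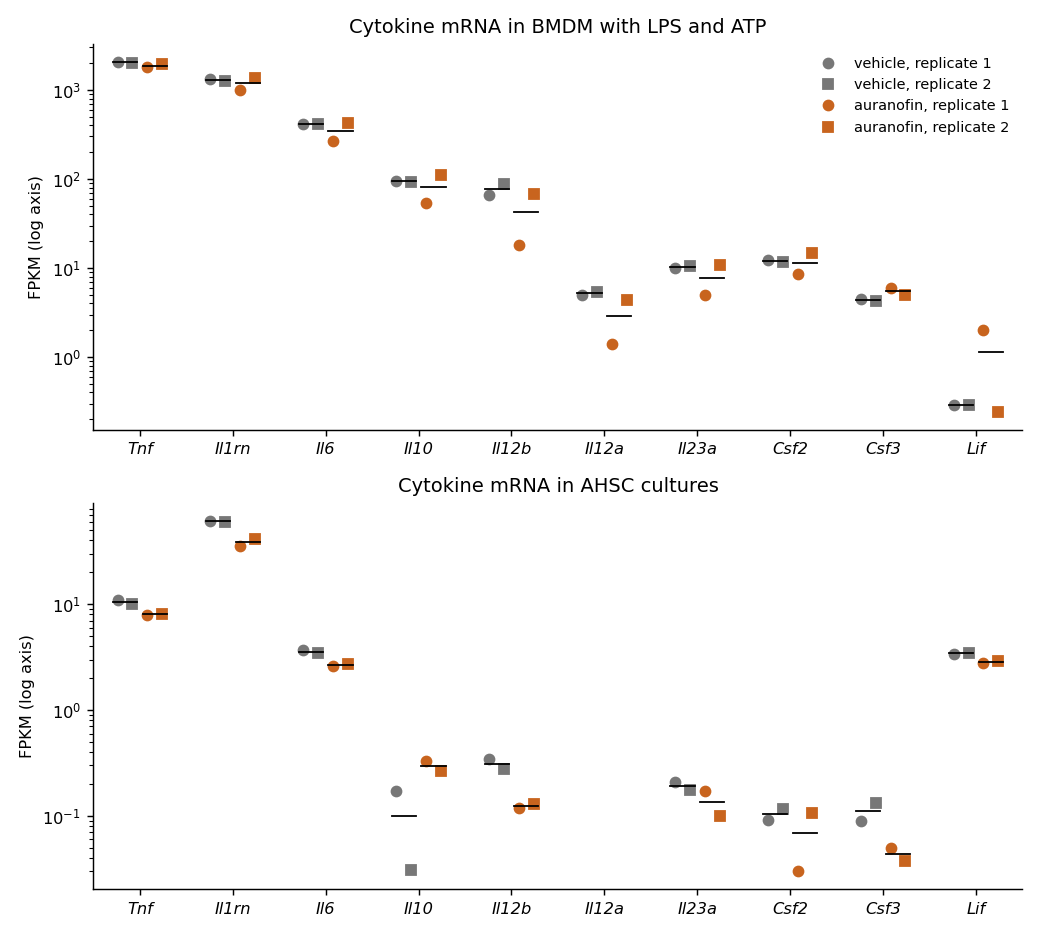
FPKM (log axis) of each cytokine gene in every library, BMDM above and AHSC below. Grey points are vehicle libraries, orange points auranofin libraries, circles replicate 1, squares replicate 2 and lines group means. In BMDM the *Il12b* circle of auranofin replicate 1 lies at 18.0 while the other 3 libraries lie between 66.9 and 88.2, and in AHSC both auranofin points of *Il1rn* lie below both vehicle points.

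In AHSC, the question was whether auranofin at 0.03 µM changed cytokine mRNA without LPS. Only 4 of the 9 genes reached a mean of 1 FPKM and were tested, and all 4 were lower in both auranofin libraries than in both vehicle libraries. *Il1rn* fell past 1.5-fold with an unadjusted p under 0.05, the thresholds in the key of a plot in the study. *Tnf* did not reach 1.5-fold, and its adjusted p lay just under 0.05.

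*Il1rn* was at 61.4 and 59.8 FPKM in the vehicle libraries and at 35.6 and 41.5 in the auranofin libraries. The groups did not overlap, and the auranofin libraries held 58.7% and 68.5% of the vehicle mean. On the log2(FPKM + 1) scale, which understates the change of low genes, the difference was -0.64 (SE 0.07, limma adjusted p = 0.0165 over 12149 genes). *Il1rn* was 1 of 18 genes, 0.148% of those tested, that were called lower in AHSC. Without auranofin replicate 1 the difference was -0.53, short of 1.5-fold. In a bulk culture, fewer cells of a type and less RNA per cell cannot be told apart.

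*Tnf* was at 11.0 and 10.05 FPKM with vehicle and at 7.96 and 8.04 with auranofin. Both auranofin libraries were lower and held 75.6% and 76.3% of the vehicle mean. The log2 difference was -0.36 (SE 0.06, limma adjusted p = 0.0429), which did not reach 1.5-fold. *Tnf* and *Il1rn* were the members among the 2.33% of AHSC genes with an adjusted p under 0.05. The adjusted call of *Tnf* was lost without the filter (limma adjusted p = 0.138), without the trend (0.0780), with the replicate block (0.0631) and in 3 of the 4 fits that left out a library (0.0526 to 0.124). That of *Il1rn* was lost without the filter (limma adjusted p = 0.0949) and without the trend (0.05005).

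*Il6* was at 3.68 and 3.44 FPKM with vehicle and at 2.63 and 2.73 with auranofin, a log2 difference of -0.31 (SE 0.06, limma adjusted p = 0.0779). *Lif* was at 3.40 and 3.46 FPKM with vehicle and at 2.78 and 2.88 with auranofin, a difference of -0.21 (SE 0.06, limma adjusted p = 0.158). Neither passed the adjusted threshold, although neither pair of groups overlapped. Groups that did not overlap, with auranofin lower, occurred in 23.9% of all AHSC genes tested. The median difference of the 4 genes was -0.33, beside 0.00 over all genes tested. With 2 libraries in each group, 0.333 is the smallest two-sided p that exact permutation allows, and each of the 4 genes had it.

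The other 5 genes in AHSC were at the edge of detection, and no test was made. *Il12b* was at 0.346 and 0.277 FPKM with vehicle and at 0.118 and 0.130 with auranofin, which corresponds to an estimated 20, 17, 7 and 10 fragments. *Il10* was at 0.170 and 0.0310 FPKM with vehicle and at 0.330 and 0.264 with auranofin, an estimated 7, 1, 13 and 14 fragments. It was the only one of the 9 with both auranofin libraries above both vehicle libraries, as were 3181 of the 12149 genes tested in AHSC. *Il23a*, *Csf2* and *Csf3* lay between 0.0299 and 0.211 FPKM in every library, on at most 9 estimated fragments. The 95% counting intervals of *Il12b* overlap between vehicle replicate 1 (0.209 to 0.528 FPKM) and auranofin replicate 1 (0.0507 to 0.260). Those of *Il10* do not overlap between vehicle replicate 2, which ends at 0.129 FPKM, and the auranofin libraries, which begin at 0.177 and 0.148, while vehicle replicate 1 (0.0683 to 0.350) overlaps both. These intervals cover counting error only.

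Summed, the macrophage markers were close to level in the AHSC comparison in which *Il1rn*, *Tnf*, *Il6* and *Lif* were lower. Their sum was 8346 and 8501 FPKM with vehicle and 8150 and 8225 with auranofin. Among the 11 markers, 0 were called, with a median log2 difference of -0.03. Of the 11, 9 were lower, 2 of them at an unadjusted p under 0.05, as were 9.22% of all genes tested. The Kupffer cell markers summed to 2223 and 2201 FPKM with vehicle and to 2447 and 2308 with auranofin, with 0 of 4 tested called, and *Clec4f* was higher (limma adjusted p = 0.0395). The stellate markers were lower, at 3508 and 3683 FPKM against 3062 and 3191, with a median of -0.14 and 0 of 10 called, but 5 of the 10 were lower at an unadjusted p under 0.05. *Acta2*, the smooth muscle actin gene of activated stellate cells, was at 956 and 965 FPKM with vehicle and at 743 and 737 with auranofin (log2 difference -0.38, limma adjusted p = 0.00719), a difference close to that of *Tnf*. Granulocyte markers were highest in auranofin replicate 2, at 69.9 FPKM against 6.18 to 17.6 in the other libraries, and their part in the cytokine values was not tested. The endothelial markers summed to between 178 and 190 FPKM, with 2 of 6 lower at an adjusted p under 0.05 and 2 higher at an unadjusted p under 0.05. The lower ones were *Stab2* (log2 difference -0.37, limma adjusted p = 0.0169) and *Clec4g* (-0.44, 0.0130), both sinusoidal endothelial genes. *Cdh5* was higher, at 71.8 and 68.0 FPKM with vehicle and at 79.7 and 74.2 with auranofin. So was *Kdr*, at 12.1 and 12.8 with vehicle and at 14.4 and 13.9 with auranofin. *Lyve1* overlapped, at 14.6 and 14.7 with vehicle and at 14.7 and 13.7 with auranofin. *Kdr* and *Lyve1* were named after their values were seen. The part of the macrophage, Kupffer cell, stellate and endothelial markers in the cytokine values was not tested. The dendritic cell markers summed to at most 3.58 and the hepatocyte and lymphocyte markers to at most 1.57.

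**Figure D2:**
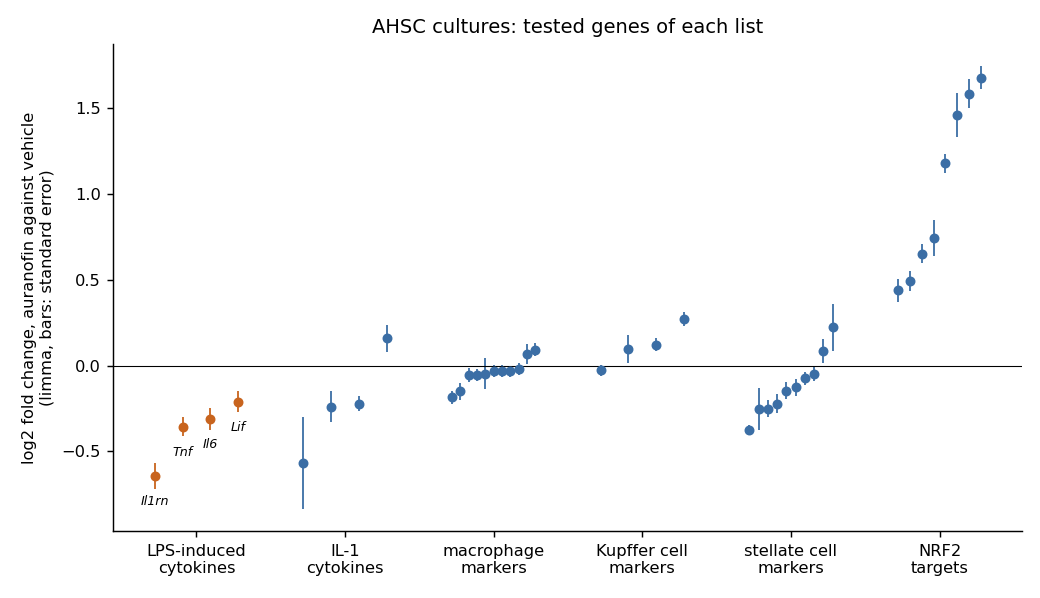
Log2 fold change in AHSC, auranofin against vehicle on the log2(FPKM + 1) scale (vertical axis), for every tested gene of 6 lists ordered by value; bars are limma standard errors, from 2 libraries per group. The 4 cytokine genes lie between -0.64 and -0.21, the macrophage markers centre on -0.03, and all 8 NRF2 targets lie above 0.

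Among the genes that work with these cytokines, receptors and regulators had 0 calls in AHSC. Of 14 tested receptor chains, 0 were called, and 4 were lower and 1 higher at an unadjusted p under 0.05, as were 9.22% (lower) and 8.57% (higher) of all genes tested. *Il6st*, the gp130 chain through which IL-6 and LIF signal, was at 107 and 106 FPKM with vehicle and at 89.1 and 93.6 with auranofin. Of 7 other cytokine genes tested, 0 were called, but 6 were lower, with a median of -0.11. Of these, 2 had an unadjusted p under 0.05 and 1 an adjusted p under 0.05. *Csf1*, the macrophage growth factor, was at 219 and 208 FPKM with vehicle and at 178 and 171 with auranofin. Of 21 transcription factors of LPS-responsive genes, 0 were called, 9 were lower at an unadjusted p under 0.05 and 1 was higher, with a median of -0.11. *Spi1*, encoding PU.1, was the highest of them at 118 and 121 FPKM with vehicle and 114 and 111 with auranofin.

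None of the 14 genes that act on mRNA stability or translation (the mRNA decay list) was called in AHSC. None had an unadjusted p under 0.05 either. *Zfp36* was at 21.7 and 21.2 FPKM with vehicle and at 21.9 and 22.8 with auranofin. Of the 4 IL-1 family cytokine genes, 0 were called, with a median of -0.23, and 2 were lower at an unadjusted p under 0.05. The genes acting in TNF release (4 tested, median -0.13) and the feedback inhibitors (7 tested, median -0.02) had 0 called. The heat shock genes (8 tested, median 0.07) also had 0 called. At an unadjusted p under 0.05, 2 TNF release genes were lower. So were 2 feedback inhibitors, while 1 feedback inhibitor and 2 heat shock genes were higher. Of all genes tested, 9.22% were lower and 8.57% higher at that threshold. By contrast, 6 of 8 NRF2 target genes were called higher, as were 0.428% of all genes tested, with a median of 0.96. *Hmox1*, the heme oxygenase gene, was at 391 and 368 FPKM with vehicle and at 1296 and 1141 with auranofin. Both AHSC auranofin libraries thus held more NRF2 target mRNA beside less *Il1rn* mRNA.

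In BMDM, the question was whether auranofin changed the cytokine mRNA of macrophages already given LPS and ATP. Averaged over the libraries, 9 of the 10 genes reached 1 FPKM and were tested. None of the 9 was called by limma, with adjusted p between 0.721 and 0.879 and 0 at an unadjusted p under 0.05. The share of all BMDM genes called was 0.152%. The 2 auranofin libraries went apart: in replicate 1, 5 of the 9 genes were at least 1.5-fold lower than the vehicle mean on the log2(FPKM + 1) scale (8.07% of all genes tested) and 0 were that much higher (15.2% of all genes). In replicate 2, 0 of the 9 lay that far off in either direction (0.661% of all genes).

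The IL-12 and IL-23 subunits stood lowest in replicate 1. *Il12b* was at 66.9 and 88.2 FPKM with vehicle, at 18.0 in auranofin replicate 1 and at 66.9 in replicate 2. Replicate 1 thus held 23.2% of the vehicle mean and replicate 2 held 86.3%, a level within the vehicle range. The group difference was -1.11 on the log2 scale (SE 0.67, limma adjusted p = 0.721). It was -0.20 without replicate 1 and -2.03 without replicate 2. Among the 9232 genes tested, *Il12b* ranked 19 from the bottom in replicate 1.

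*Il12a*, the partner that makes IL-12, was at 4.94 and 5.40 FPKM with vehicle and at 1.38 and 4.38 with auranofin. Replicate 1 held 26.8% of the vehicle mean and replicate 2 held 84.7%, and both lay below the vehicle libraries. The difference was -0.78 (SE 0.43, limma adjusted p = 0.721), and -0.20 without replicate 1. *Il23a*, the partner that makes IL-23, was at 10.1 and 10.6 FPKM with vehicle and at 4.92 and 10.7 with auranofin. Replicate 1 held 47.6% of the vehicle mean, while replicate 2 lay just above the vehicle libraries at 103%. The difference was -0.45 (SE 0.36, limma adjusted p = 0.721) and turned to 0.05 without replicate 1.

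The balance between the shared subunit and its partners was compared within each library. The ratio of *Il12b* to *Il12a* FPKM was 13.5 and 16.3 with vehicle, 13.01 in auranofin replicate 1 and 15.3 in replicate 2. The ratio of *Il12b* to *Il23a* was 6.61 and 8.35 with vehicle, 3.66 in replicate 1 and 6.26 in replicate 2. So in replicate 1 both IL-12 subunits were lower by a like factor, and *Il23a* was lower by less.

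*Il10* was at 95.8 and 91.7 FPKM with vehicle and at 53.4 and 110.3 with auranofin. The auranofin libraries lay on either side of the vehicle pair, at 57.0% and 118% of its mean. The difference was -0.28 (SE 0.38, limma adjusted p = 0.752), and 0.23 without replicate 1. *Il6* was at 414 and 417 FPKM with vehicle and at 264 and 430.3 with auranofin, 63.7% and 104% of the vehicle mean. Its difference was -0.30 (SE 0.27, limma adjusted p = 0.721), and 0.05 without replicate 1.

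The most abundant cytokine mRNAs, *Tnf* and *Il1rn*, held at least 77.5% of the vehicle mean in both auranofin libraries. *Tnf* was at 2087 and 2001 FPKM with vehicle and at 1789.6 and 1959 with auranofin. Both auranofin libraries lay below the vehicle libraries, at 87.6% and 95.8% of their mean, with a difference of -0.13 (SE 0.12, limma adjusted p = 0.721) that was -0.061 without replicate 1. *Il1rn* was at 1318 and 1249.8 FPKM with vehicle and at 995 and 1374 with auranofin. Replicate 1 held 77.5% of the vehicle mean and replicate 2 held 107%, so the groups overlapped, with a difference of -0.13 (SE 0.20, limma adjusted p = 0.770) that was 0.10 without replicate 1. The ratio of *Il1rn* to *Il1b*, which encodes the cytokine that the antagonist opposes, was 0.827 and 0.732 with vehicle, 1.25 in replicate 1 and 0.790 in replicate 2.

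The colony-stimulating factors differed from each other. *Csf2* was at 12.2 and 11.7 FPKM with vehicle and at 8.48 and 14.6 with auranofin, 71.0% and 122% of the vehicle mean. Its difference was -0.09 (SE 0.27, limma adjusted p = 0.879), and 0.27 without replicate 1. *Csf3* was at 4.53 and 4.24 FPKM with vehicle and at 6.00 and 4.94 with auranofin. It was the only one of the 9 tested genes with both auranofin libraries above both vehicle libraries, at 137% and 113% of their mean (log2 difference 0.26, SE 0.14, limma adjusted p = 0.721). Without replicate 1 its difference was 0.14. Groups failed to overlap, in either direction, in 3 of the 9 genes (*Tnf*, *Il12a* and *Csf3*) and in 38.8% of all BMDM genes tested.

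*Lif* lay below the filter, with a mean of 0.712 FPKM, and was not tested. It was at 0.289 and 0.287 FPKM with vehicle, at 2.03 in auranofin replicate 1 and at 0.240 in replicate 2. These values correspond to an estimated 34, 31, 278 and 32 fragments, and the 95% counting interval in replicate 1, from 1.80 to 2.29 FPKM, does not reach the other libraries, whose intervals end at 0.409. Replicate 1 was at 707% of the vehicle mean and replicate 2 at 83.4%. *Lif* was the only one of the 10 genes more than 1.5-fold higher in replicate 1 than in vehicle, and counting error is only a part of the error between cultures.

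Across the 9 tested genes, auranofin replicate 1 was the lowest of the 4 libraries in 8, all except *Csf3*, and it was the lowest in 27.9% of all genes tested. The median difference from the vehicle mean was -0.65 in replicate 1 and 0.05 in replicate 2, beside 0.18 and 0.00 over all genes tested. The differences in replicate 1 ran from -2.03 for *Il12b*, through -1.37 for *Il12a*, -0.94 for *Il23a*, -0.80 for *Il10*, -0.65 for *Il6*, -0.45 for *Csf2*, -0.37 for *Il1rn* and -0.19 for *Tnf*, to 0.38 for *Csf3* and 1.24 for the untested *Lif*.

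**Figure D3:**
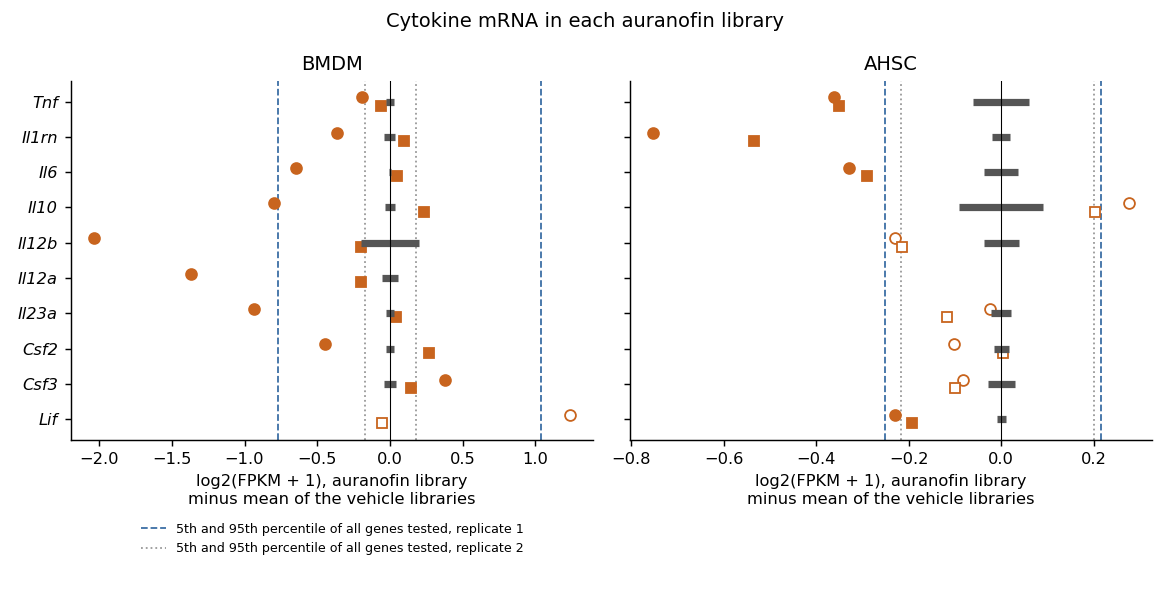
Difference of each auranofin library from the vehicle mean, in log2(FPKM + 1) (horizontal axis, scaled separately for BMDM and AHSC); circles are replicate 1, squares replicate 2, open symbols genes below the filter and grey bars the span of the vehicle libraries around their mean. Dashed and dotted lines are the 5th and 95th percentile of all genes tested. In BMDM the circles spread from -2.03 to 1.24 while the squares stay between -0.20 and 0.27, and in AHSC circles and squares of the 4 tested genes lie together.

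Genes whose pattern over the 4 BMDM libraries came nearest to a cytokine were sought among 4245 genes at 10 FPKM or more, by the root mean square difference of log2(FPKM + 1) from the vehicle mean. Nearest to *Il12b* were *Mmp14* (0.17), *Cd69* (0.17) and *Actb* (0.18). *Mmp14*, a membrane-bound matrix protease gene, was at 112 and 115 FPKM with vehicle and at 24.8 and 112 with auranofin. *Actb*, the cytoplasmic actin gene often used as a reference, was at 3587 and 3687 FPKM with vehicle and at 1004 and 3574 with auranofin, so it was lower in replicate 1 as well. Nearest to *Il23a* were *Hook2*, *Marcksl1* and *Myo1e*, each at 0.02, and nearest to *Il10* were *Spsb1* (0.03), *Adora2b* (0.04) and *Rnpep* (0.06). These likenesses rest on 1 library that differs from 3 others.

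Other cytokine genes showed the same split between the BMDM libraries. Of 11 tested, 6 were at least 1.5-fold lower in replicate 1 and 1 was higher, with a median of -0.61 against 0.10 in replicate 2. In replicate 1, 8.07% of all genes tested were that much lower and 15.2% higher. *Il27* and *Ebi3* encode the subunits of IL-27, a relative of IL-12. *Il27* was at 784 and 821 FPKM with vehicle and at 204 and 861 with auranofin, and *Ebi3* was at 353 and 371 with vehicle and at 143 and 405 with auranofin. *Ifnb1*, the interferon-β gene, was at 159 and 152 FPKM with vehicle and at 129.8 and 166 with auranofin. All 3 tested IL-1 family cytokine genes were lower in replicate 1, with a median of -1.30. *Il33*, below the filter and not tested, went the other way. It was at 0.253 and 0.276 FPKM with vehicle and at 2.40 and 0.396 with auranofin. *Il1b* was at 1593 and 1708 FPKM with vehicle and at 796 and 1739 with auranofin. No gene of either list was called by limma.

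Of 14 receptor chains tested in BMDM, 4 were at least 1.5-fold lower and 3 were higher in replicate 1. Over all genes tested, 8.07% were that much lower and 15.2% higher. *Tnfrsf1a*, the main signalling receptor for TNF, was at 128 and 131 FPKM with vehicle and at 76.1 and 136 with auranofin. *Csf2ra*, the receptor chain specific to GM-CSF, was at 126 and 132 FPKM with vehicle and at 129.6 and 129.0 with auranofin. The genes acting in TNF release (3 tested) had 0 that differed 1.5-fold from vehicle in either auranofin library.

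Among 21 transcription factors, 8 were at least 1.5-fold lower and 3 were higher in replicate 1, with a median of -0.43. Over all genes tested, 8.07% were that much lower and 15.2% higher. *Irf1*, an activator of the IL-12 genes, was at 696 and 671 FPKM with vehicle and at 466 and 664 with auranofin. *Nfkb2*, an NF-κB subunit gene, was at 338 and 361 FPKM with vehicle and at 225 and 352 with auranofin. *Atf3*, a stress-induced factor that restrains LPS-induced cytokine genes, was at 336 and 333 FPKM with vehicle and at 690.1 and 352 with auranofin. Of 7 feedback inhibitors, 2 were that much lower and 1 was higher. *Socs3*, an inhibitor of IL-6 signalling, was at 460.4 and 464 FPKM with vehicle and at 245 and 492 with auranofin.

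Of 14 genes that act on mRNA stability or translation, 0 were at least 1.5-fold lower and 3 were higher in replicate 1. Of all genes tested, 8.07% were that much lower and 15.2% that much higher. The 3 were *Zfp36l1*, *Zfp36l2* and *Tial1*, named here after their values were seen. *Zfp36l2*, a paralogue of *Zfp36*, was at 15.1 and 14.7 FPKM with vehicle and at 79.1 and 13.5 with auranofin. *Zfp36l1* was at 1.76 and 1.64 FPKM with vehicle and at 10.2 and 1.66 with auranofin. *Zfp36* itself was at 779.8 and 794 FPKM with vehicle and at 536 and 855 with auranofin. In that library, *Zfp36l1* and *Zfp36l2* thus lay above vehicle and *Zfp36* below it, the last by less than 1.5-fold.

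Of the lists examined, the stress genes differed most between the 2 BMDM auranofin libraries. All 7 tested NRF2 targets were at least 1.5-fold higher in replicate 1, with a median of 3.72, and 0 were in replicate 2, with a median of -0.06. In replicate 1, 15.2% of all genes tested were that much higher. *Hmox1* was at 82.7 and 86.7 FPKM with vehicle and at 4403 and 85.3 with auranofin. All 8 heat shock genes were likewise higher in replicate 1, with a median of 2.22, and their median in replicate 2 was 0.05. The macrophage markers summed to 9864 and 9663 FPKM with vehicle and to 10886 and 9945 with auranofin. Single markers varied more: of 11 tested, 2 were at least 1.5-fold lower in replicate 1 and 1 was higher. Over all genes tested, 8.07% were that much lower and 15.2% higher. Granulocyte markers summed to 167 and 174 FPKM with vehicle and to 228 and 231 with auranofin. The part of the stress genes and of the granulocyte markers in the cytokine values was not tested.

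**Figure D4:**
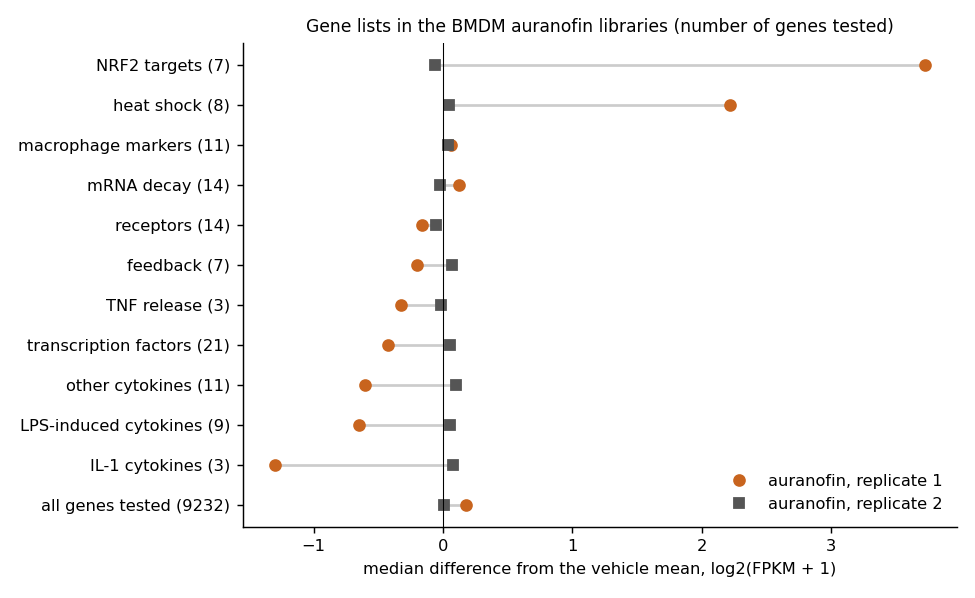
Median difference from the vehicle mean, in log2(FPKM + 1), of 11 gene lists and of all genes tested in the BMDM auranofin libraries (circles replicate 1, squares replicate 2; number of genes tested in brackets). In replicate 1 the cytokine medians lie at -0.65, -0.61 and -1.30 and the NRF2 targets at 3.72, while the plotted medians of replicate 2 lie between -0.06 and 0.10.

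The cytokines that were lower in AHSC can be set beside the same genes in BMDM. For *Il1rn* the log2 differences were -0.64 in AHSC and -0.13 in BMDM, and for *Tnf* they were -0.36 and -0.13. For *Il6* they were -0.31 and -0.30. The BMDM differences of *Il1rn* and *Il6* rested on auranofin replicate 1 alone and were 0.10 and 0.05 without it. *Lif* was lower in both AHSC auranofin libraries. In BMDM it lay below the filter and was far higher in auranofin replicate 1 alone, with a difference of -0.05 without it. The differences between the cell types were not tested, because the tables were normalized separately and LPS, ATP, dose and time differ.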

How the data were processed

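RNA sequencing libraries of mouse AHSC and BMDM, 2 vehicle and 2 auranofin libraries of each, were prepared from polyadenylated RNA with strand kept. As values, the authors deposited FPKM values, 1 table per cell type with a value per gene and library, on mm10 with RefSeq transcripts. The submitters' processing notes list CASAVA, FastQC 0.11.7, Trimmomatic 0.38, HISAT2 2.1.0 and StringTie 1.3.4d, with no roles, and any filter is not given in the sources used here. FPKM hides depth and divides transcripts of a gene by length, so a shift between isoforms can alter it. Depth was estimated from the steps of 1 fragment among values under 0.2 FPKM, and intervals from it (95%, Poisson) cover counting error only.

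Samples were grouped by their labels, which do not say whether replicates were separate cultures or animals, so p-values measure the spread between these libraries, which may be technical. The auranofin difference was fitted with limma (lmFit, eBayes with trend) in each table alone, on log2(FPKM + 1) and on all genes whose mean over 4 libraries reached 1 FPKM, with Benjamini-Hochberg adjustment over all of them. A call needed 1.5-fold on that scale and an unadjusted p under 0.05, thresholds read from the key of a plot in the study. A gene below the filter was given its values and difference with no test. The method was tested on simulated data in which both auranofin libraries shared each change. That setting does not cover BMDM, where the auranofin libraries went apart.

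The 10 genes and all lists were chosen with earlier results of these data known. All 10 were reported; from each other list the 4 most abundant genes of a table and those called could be named, and for cytokines with a mean of at least 1 FPKM that varied at least 2-fold between BMDM libraries, which leaves out *Lif*, the 3 genes nearest in pattern (those of *Il12a* are not reported here). Promoters came from RefSeq (GRCm38.p6) and 3′ UTRs from GENCODE M21, the longest per gene. Alternatives were a pseudocount of 0.1, no filter or a mean of 5 FPKM, quantile normalization, median centring, no trend, a replicate block, a 2-fold threshold, and each library left out. R 4.3.3, limma 3.58.1, Python 3.11.15, pandas 2.3.3, numpy 2.4.6 and matplotlib 3.10.9 were used.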

Additional observations from a re-analysis of the deposited data

Results flagged for a closer look

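*Csf3*, the gene of G-CSF, was the only one of the 9 genes listed in both tables whose auranofin libraries all lay below vehicle in AHSC and all lay above vehicle in BMDM. Its log2 difference was -0.091 in AHSC and 0.26 in BMDM. Such separation was common: 23.9% of AHSC genes tested lay wholly below vehicle, and 2425 of 9232 BMDM genes tested lay wholly above it. The AHSC values rest on an estimated 4 and 6 fragments with vehicle and 2 and 2 with auranofin, against 165 to 296 per library in BMDM. The difference between the tables was not tested.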

How the results depend on the processing

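Leaving out auranofin replicate 1 from BMDM turned the difference of *Il6* to 0.052, *Il10* to 0.23, *Il23a* to 0.045, *Il1rn* to 0.10 and *Csf2* to 0.27. *Lif* was -0.05 there. Over the 4 fits that left out 1 library each, *Il6* ranged from -0.65 to 0.052, *Il10* from -0.80 to 0.23, *Il12a* from -1.37 to -0.20, *Il12b* from -2.03 to -0.20, *Il23a* from -0.94 to 0.045, *Il1rn* from -0.37 to 0.10 and *Csf2* from -0.45 to 0.27. The lower ends, without replicate 2, passed the thresholds in all of these but *Il1rn* and *Csf2*, and then the lone auranofin library is assumed to vary like the vehicle libraries. In AHSC, *Il1rn* ranged from -0.75 to -0.53 and missed 1.5-fold at -0.53. The number of AHSC genes past the thresholds was 70, and 124 with a pseudocount of 0.1, 17 at 2-fold and 106 to 137 with a library left out. In BMDM it was 14 (8 higher, 6 lower; 8 higher and 10 lower with quantile normalization or median centring), and 27 with a pseudocount of 0.1, 8 with a mean of 5 FPKM, 7 at 2-fold and 14 to 2122 with a library left out, the highest without auranofin replicate 2. Replicate numbers did not pair the samples by the labels, and the correlation of deviations of same-numbered libraries was 0.20 in AHSC and -0.09 in BMDM. With the replicate block, BMDM had 42 genes past the thresholds, and *Il12b* passed at an unchanged difference of -1.11 (limma adjusted p = 0.890). With a pseudocount of 0.1, the untested AHSC genes were at 1.07 for *Il10*, -0.88 for *Il12b*, -0.33 for *Il23a*, -0.32 for *Csf2* and -0.55 for *Csf3*, larger because a smaller pseudocount damps low values less. Genes under a mean of 5 FPKM have no value under that filter. The AHSC genes under 1 FPKM rest on at most 20 estimated fragments per library. In AHSC, the limma adjusted p of *Tnf* ran from 0.0135 to 0.138 and that of *Il1rn* from 0.00261 to 0.0949 over the alternatives.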
